A study of Rattus norvegicus with 46 samples.

Results

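From glucose uptake to lactate, 7 genes were followed of the 30452 gene IDs in the files: Slc2a1 (ENSRNOG00000007284), Hk2 (ENSRNOG00000006116), Gapdh (ENSRNOG00000018630), Eno2 (ENSRNOG00000013141), Pkm (ENSRNOG00000011329), Ldha (ENSRNOG00000013009) and Ldhb (ENSRNOG00000013000). They were chosen by ID, and the symbols are those given with the IDs when the genes were chosen, since the files hold IDs only. RNA was counted in 46 brain libraries of male Wistar rats that were 3 months old at the start and ate a standard diet (labelled ad libitum) or a ketogenic diet. The standard food held 3227 kcal/kg, of which 11% was from fat, 24% from protein and 65% from carbohydrate, and the ketogenic food held 6431 kcal/kg, of which 84%, 11% and 5%. Intact brain on the standard diet gave 8 libraries and intact brain on the ketogenic diet 8. Ischemic lesions gave 11 libraries of standard-diet and 19 of ketogenic-diet rats, 14 days after occlusion of the middle cerebral artery (MCAO), a rat model of stroke. Feeding lasted 2 months up to MCAO and another 2 weeks, and no group carries a genetic change in the labels. The sources used here give neither the brain region nor whether a library is 1 rat, so p-values measure the spread between libraries, which may be technical in part.

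Cells take up glucose through carriers, trap it by phosphorylation with a hexokinase, and break it down to pyruvate, which lactate dehydrogenase can turn into lactate and back. The adult brain runs largely on blood glucose and turns to ketone bodies when carbohydrate is scarce, which is what a ketogenic diet provokes. After a stroke neurons are lost from the core of the infarct, and microglia, blood-borne phagocytes and reactive astrocytes gather in or around it. These cell types differ in the carriers and isoenzymes they use.

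The results turn on Hk2 and Slc2a1, which rose in lesions, and on the lactate dehydrogenase pair, whose promoters are shown to compare genes that rose with genes that fell. The sequences are from RefSeq (build GRCr8, 250 bases before to 50 after the annotated start), where 7 of 7 genes were matched by symbol. They lie at chr5:138002272-138002571, plus strand for Slc2a1, chr4:116841226-116841525, minus strand for Hk2, chr1:106507842-106508141, plus strand for Ldha and chr4:177177359-177177658, minus strand for Ldhb. Capitals mark the letters ACGTG or, on the other strand, CACGT. They are a form of the core of the site bound by the hypoxia-inducible factors and are shared by other factors. Other forms of that core, such as GCGTG, were neither marked nor counted.
Slc2a1: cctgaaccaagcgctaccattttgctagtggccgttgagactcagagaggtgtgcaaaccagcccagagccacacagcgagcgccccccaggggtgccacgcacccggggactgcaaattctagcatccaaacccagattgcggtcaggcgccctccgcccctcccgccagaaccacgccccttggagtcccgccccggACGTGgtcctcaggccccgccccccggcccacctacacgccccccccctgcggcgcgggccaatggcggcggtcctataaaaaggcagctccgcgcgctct
Hk2: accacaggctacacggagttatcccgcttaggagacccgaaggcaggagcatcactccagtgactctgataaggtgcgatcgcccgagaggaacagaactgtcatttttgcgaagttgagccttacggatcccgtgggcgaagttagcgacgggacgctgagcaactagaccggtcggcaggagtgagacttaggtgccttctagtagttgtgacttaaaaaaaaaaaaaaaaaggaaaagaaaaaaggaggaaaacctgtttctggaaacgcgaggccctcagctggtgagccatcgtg
Ldha: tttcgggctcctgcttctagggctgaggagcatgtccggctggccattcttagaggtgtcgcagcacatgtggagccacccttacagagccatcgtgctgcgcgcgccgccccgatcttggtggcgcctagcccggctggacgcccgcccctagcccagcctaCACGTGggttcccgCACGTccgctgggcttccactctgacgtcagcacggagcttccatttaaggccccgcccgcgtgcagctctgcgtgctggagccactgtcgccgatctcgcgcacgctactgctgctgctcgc
Ldhb: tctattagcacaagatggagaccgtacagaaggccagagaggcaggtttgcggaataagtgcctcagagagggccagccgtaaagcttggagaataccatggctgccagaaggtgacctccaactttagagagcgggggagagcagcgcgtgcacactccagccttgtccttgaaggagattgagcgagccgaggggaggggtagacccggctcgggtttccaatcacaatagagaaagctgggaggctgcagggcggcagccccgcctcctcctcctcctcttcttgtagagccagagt
The Ldha window holds 2 marked stretches, which begin 87 and 73 bases before the start, the first reading the same on both strands. Slc2a1 has 1, beginning 51 bases before the start. The Hk2 and Ldhb windows hold none of these letters. Of the other genes, Gapdh and Eno2 have 1 match each and Pkm none, so 4 of the 7 windows hold these letters, against 19.3% of 33469 RefSeq promoters of 300 bases. Of Hk2 and Slc2a1, the pair that rose, 1 window holds the letters and the other does not. Among the genes that fell, the Gapdh, Eno2 and Ldha windows hold them and the Ldhb window does not. The GC content of the 7 windows ran from 51.0% to 70.7%, and the 33469 promoters were not matched for it.

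Libraries held 8883068 to 20420918 counts in intact brain and 15290782 to 30601841 in lesions, and levels are given in CPM, counts relative to the library size after TMM scaling over the 46 libraries. In intact brain the 20 most abundant genes took 24.5% ± 4.5 of counts (standard diet, n = 8, SD) and 18.5% ± 3.4 (ketogenic diet, n = 8), against 12.7% ± 0.80 (n = 11) and 12.5% ± 1.0 (n = 19) in the 2 lesion groups. Tissue makeup could not be checked, because marker genes were not matched to IDs here. Relative to library totals alone, TMM lowers lesion values against intact ones: with totals only, the median gene lay 0.34 higher in lesions on the standard diet and 0.25 higher on the ketogenic diet, on the log2 scale. Falls were smaller on that scale: Gapdh was -0.34 on the standard and -0.37 on the other diet, Eno2 -0.50 and -0.60, and Ldhb -0.43 and -0.50. Rises were larger, with Slc2a1 at 0.99 and 1.26 and Hk2 at 3.92 and 3.72. Each of these 10 values passed the edgeR test (adjusted p from 2.69e-09 to 0.0192).

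Of the 7 genes, Slc2a1 and Hk2, for the first steps of glucose use, went up in lesions on the TMM scale. Most of those for later steps went down, and other genes of these steps were not analysed. Gapdh, Eno2, Ldha and Ldhb fell on both diets, and Pkm did not pass the test on either. On the standard diet 6 of 7 genes were called, 2 higher and 4 lower (edgeR quasi-likelihood test, adjusted p under 0.05 over all 15446 genes tested), where 68.4% of all genes moved, 34.3% up and 34.1% down. The same 6 were called in the same directions with ketogenic feeding, where 69.1% of 15862 genes were called, 35.2% higher and 33.9% lower. A share of 6 in 7 is to be read against a tissue in which most genes moved. The median log2 fold change of the 7 was -0.33 with the standard and -0.62 with the ketogenic diet, and that of all genes tested was -0.006 and -0.003. In bulk tissue, fewer cells of a type and less RNA per cell cannot be told apart.

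**Figure D1:**
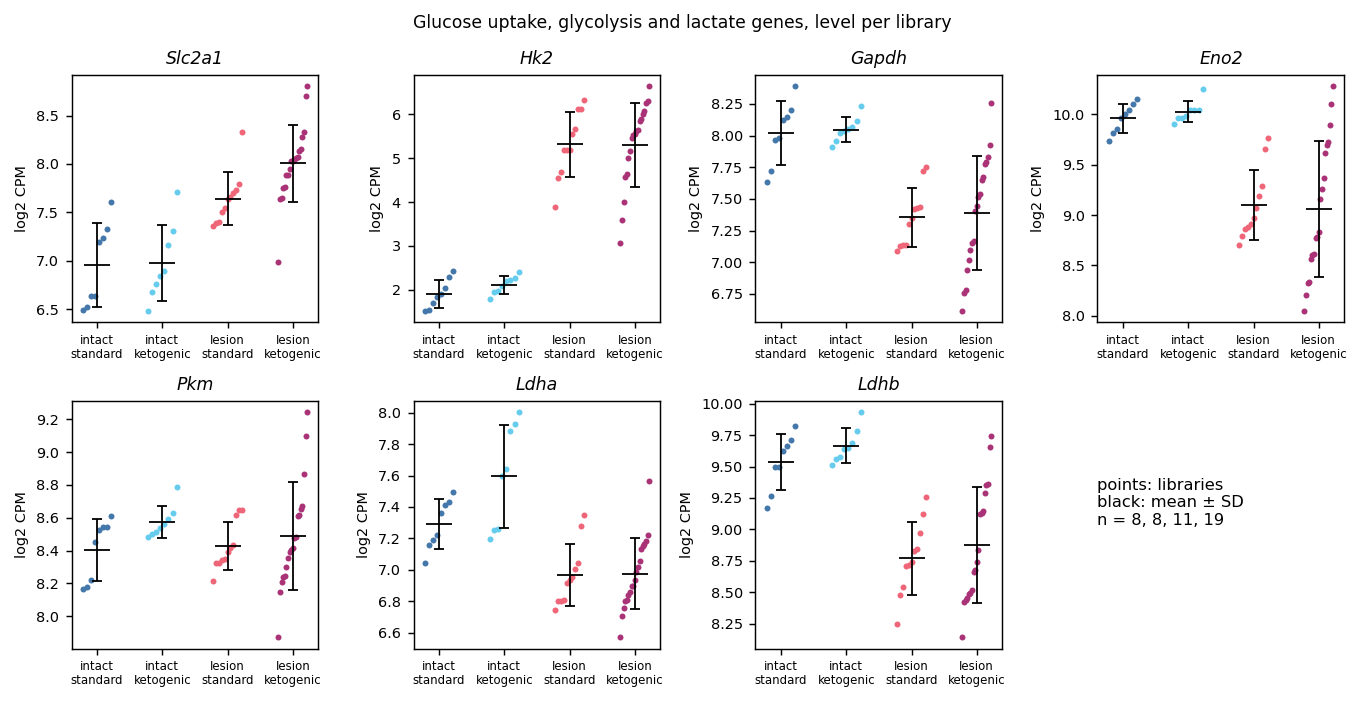
Level of each gene in every library as log2 CPM (TMM, prior count 2) in the 4 groups. Coloured points are libraries and black bars the mean ± SD (n = 8, 8, 11 and 19). Hk2 is the gene whose lesion and intact libraries do not overlap on either diet.

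Slc2a1 encodes GLUT1, the glucose carrier of the blood-brain barrier and of astrocytes. With the standard diet its level ran from 89.8 to 195 CPM, median 123, in intact brain and from 164 to 322 with a median of 199 in the lesions. Of the 11 lesions 6 lay above all intact libraries, so the groups overlapped. From a mean of 129 ± 39.2 CPM (n = 8, SD) to one of 203 ± 43.9 CPM (n = 11), the log2 fold change was 0.64 (SE 0.16, edgeR adjusted p = 0.00123). Ketogenic-diet intact libraries ran from 89.2 to 210 CPM with a median of 117, and lesions from 127 to 448 with a median of 262. Here 16 of 19 lesions lay above every intact library, and the lowest was library 37. Slc2a1 thus rose 2.02-fold, or 1.01 on the log2 scale (SE 0.17, edgeR adjusted p = 1.21e-05).

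Hk2, hexokinase 2, is the inducible form of the enzyme that traps glucose in the cell, and is scarce in healthy adult brain, where Hk1 does most of this work. It made the largest change of the 7. With the standard diet, intact levels ran from 2.75 to 5.25 CPM with a median of 3.53, on 30 to 78 counts per library. In lesions it ran from 14.8 to 79.98 CPM with a median of 36.3. All 11 lesions lay above all 8 intact libraries, as was the case for 11.8% of genes tested, while 10.2% lay wholly below and none of the 7 did. Hk2 had a log2 fold change of 3.56 (SE 0.30, edgeR adjusted p = 9.92e-09), or 11.8-fold, and 1.74% of genes tested had a higher one. With ketogenic feeding Hk2 ran from 3.36 to 5.15 CPM with a median of 4.31 in intact brain and from 8.27 to 100.4 CPM with a median of 46.9 in lesions. Again no library overlapped, as for 7.5% of genes (6.44% lay wholly below, none of the 7 among them), and the log2 fold change was 3.45 (SE 0.37, adjusted p = 1.21e-08), or 10.9-fold, with 2.76% of genes higher. Lesions of 1 diet differed greatly among themselves: the coefficient of variation of Hk2 was 47.5% and 52.3% in the lesion groups and 24.3% and 13.9% in the intact groups, in the order standard and ketogenic.

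Gapdh encodes the dehydrogenase that opens the lower part of glycolysis and often serves as a reference gene in expression assays. It ran from 198 to 336 CPM with a median of 266 in intact brain of standard-diet rats and from 136 to 216 with a median of 163 in lesions. Of these 11 lesions 9 lay below every intact library. Its log2 fold change was -0.68 (SE 0.11, edgeR adjusted p = 1.55e-05). In ketogenic-diet rats it ran from 240 to 300 CPM in intact brain and from 97.97 to 306 in lesions, where 17 of 19 lay below all intact libraries and library 27 lay above them all. The log2 fold change there was -0.62 (SE 0.15, adjusted p = 0.000877). RefSeq lists 81 pseudogenes named after Gapdh, 30 after Ldha, 19 after Pkm and 1 after Ldhb. How reads shared with such copies were counted was not given in the sources used here, which makes the levels of these 4 genes uncertain.

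Eno2, the enolase of neurons and a classic neuronal marker, fell by about as much on both diets. It ran from 853 to 1136 CPM with a median of 1012 in intact brain of standard-diet rats and from 417 to 871 with a median of 502 in lesions, where 10 of 11 lay below all intact libraries. Eno2 had a log2 fold change of -0.84 (SE 0.13, edgeR adjusted p = 1.09e-05). Ketogenic-diet intact libraries ran from 961 to 1217 CPM with a median of 1033, and lesions from 265 to 1246 with a median of 455. Of these 19 lesions 17 lay below all intact libraries, while library 27, at 1246 CPM, lay above them all. Here the log2 fold change was -0.83 (SE 0.23, adjusted p = 0.00238).

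Pkm encodes muscle-type pyruvate kinase, whose splice forms PKM1 and PKM2 were counted together. With the standard diet intact brain averaged 341 ± 43.0 CPM (n = 8, SD) and lesions 346 ± 35.9 CPM (n = 11), a log2 difference of 0.01 with a 95% interval from -0.16 to 0.18 (edgeR adjusted p = 0.941). With the ketogenic diet these means were 382 ± 27.5 CPM (n = 8, SD) and 369 ± 91.0 CPM (n = 19), a log2 difference of -0.07 with an interval from -0.32 to 0.18 (adjusted p = 0.614). The ketogenic lesions lay on both sides of intact brain, with 3 above and 12 below all intact libraries. The reading of Pkm depends on the scaling. With library totals only, its log2 difference was 0.35 on the standard diet (adjusted p = 0.00147) and 0.18 with ketogenic feeding (adjusted p = 0.15).

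Ldha and Ldhb encode the M and H subunits of lactate dehydrogenase, which assemble into tetramers of any mixture. Ldha ran from 132 to 180 CPM with a median of 157 in intact brain of standard-diet rats and from 107 to 163 with a median of 122 in lesions, 8 of 11 of which lay below all intact libraries. Ldha changed by a log2 fold change of -0.33 (SE 0.09, edgeR adjusted p = 0.00227), but with library totals only it was 0.01 (adjusted p = 0.916), so this fall is relative to the TMM scale. In ketogenic-diet rats Ldha ran from 147 to 257 CPM with a median of 196 in intact brain and from 94.9 to 189 with a median of 122 in lesions. There the log2 fold change was -0.65 (SE 0.11, adjusted p = 5.74e-06), and it was -0.40 with totals only (adjusted p = 0.000928).

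Ldhb fell on both diets. It ran from 578 to 907 CPM with a median of 756 in intact brain of standard-diet rats and from 304 to 612 with a median of 427 in lesions, with 10 of 11 below all intact libraries. Ldhb had a log2 fold change of -0.77 (SE 0.12, edgeR adjusted p = 1.10e-05). With ketogenic feeding it went from a median of 800 CPM, between 730 and 977, to 427 CPM, between 282 and 856, and 17 of 19 lesions lay below all intact libraries. Its ketogenic-diet log2 fold change was -0.74 (SE 0.16, adjusted p = 0.000244).

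**Figure D2:**
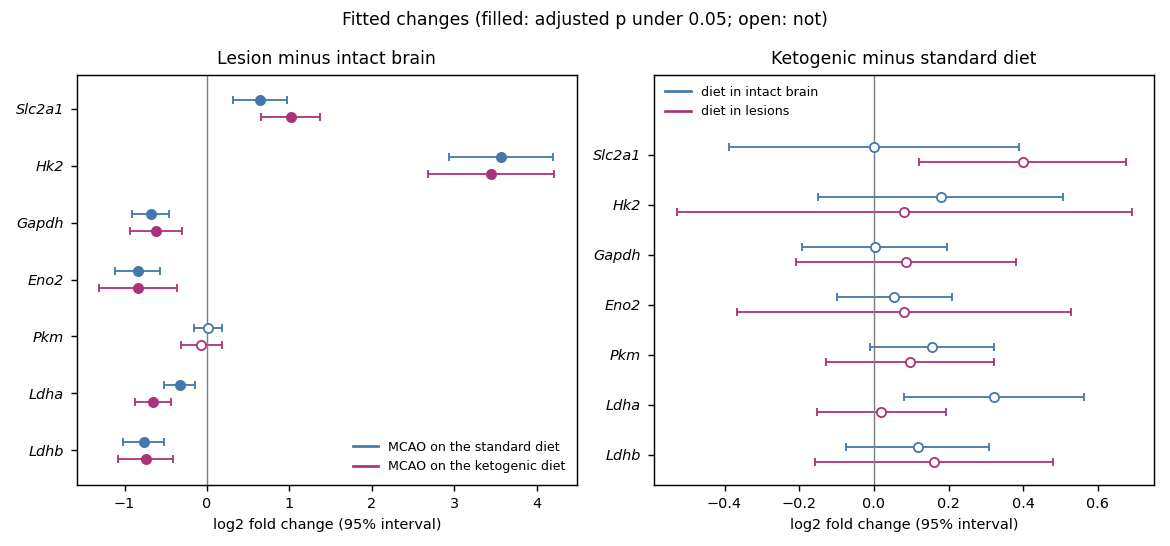
Fitted log2 fold change of each gene with its 95% interval, lesion minus intact brain on each diet (left) and ketogenic minus standard diet in each tissue (right). Filled points passed at an adjusted p under 0.05 and open points did not; 6 of 7 genes passed for each MCAO contrast and 0 of 7 for each diet contrast.

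Whether the diet alone moved these genes was asked first in intact brain. None passed there: edgeR called 0 of 7 genes, with 1 at an unadjusted p under 0.05, and DESeq2 and limma voom called 0 as well. Among all 14746 genes edgeR called 0%, with 2181 at an unadjusted p under 0.05, DESeq2 1.86% and limma voom 0%. Ldha came nearest. Ketogenic-diet rats averaged 198 ± 44.3 CPM (n = 8, SD) and standard-diet rats 157 ± 17.2 CPM (n = 8), a log2 difference of 0.32 with a 95% interval from 0.08 to 0.56, an unadjusted p of 0.0114 and an adjusted p of 0.207. The 8 ketogenic libraries fell apart in this gene, with 5 of them (libraries 45, 49, 51, 53 and 55, from 193 to 257 CPM) above all standard-diet libraries and 3 (47, 57 and 59, from 147 to 153 CPM) within their range. Groups that do not overlap were rare in this comparison, at 0.0475% of genes wholly higher and 0.0475% wholly lower. With the counts taken by the 20 most abundant genes, in percent, as a covariate the Ldha difference was 0.19 (edgeR adjusted p = 0.941). That share itself differed between the diets, and the smallest edgeR adjusted p of any gene in this fit was 0.911.

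For the other 6 genes the diet intervals in intact brain covered 0. They ran from -0.39 to 0.39 on the log2 scale for Slc2a1, from -0.15 to 0.51 for Hk2 and from -0.19 to 0.20 for Gapdh. For Eno2 the interval was -0.10 to 0.21, for Pkm -0.01 to 0.32 and for Ldhb -0.07 to 0.31.

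In lesions Slc2a1 had the largest diet difference of the 7 genes, and it did not pass. It ran from 127 to 448 CPM with a median of 262 on the ketogenic diet and from 164 to 322 with a median of 199 on the standard diet. The groups overlapped, with 2 ketogenic lesions (libraries 15 and 5) above and 1 (library 37) below all standard-diet lesions. The log2 difference was 0.40 (SE 0.14, edgeR, unadjusted p = 0.00636, adjusted p = 0.152), or 1.32-fold, and 3.29% of genes tested had a higher one. With limma voom and quality weights it was 0.39 (adjusted p = 0.0222), with the lesion axis position described below as a covariate 0.39 (adjusted p = 0.0478), and with DESeq2 0.40 (adjusted p = 0.0631). Leaving out each library in turn gave edgeR adjusted p-values from 0.0556 to 0.240. Across the 7, edgeR called 0 genes, with 1 at an unadjusted p under 0.05, DESeq2 called 0 and limma voom 1. Over all 15782 genes edgeR called 0.741%, 0.463% higher and 0.279% lower, with 2121 at an unadjusted p under 0.05. DESeq2 called 3.18% of them, limma voom 5.99% and the fit with the axis position 10.7%.

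The other genes differed less between the diets in lesions. Hk2 averaged 47.0 ± 24.6 CPM in ketogenic-diet lesions (n = 19, SD) and 44.4 ± 21.1 CPM in standard-diet lesions (n = 11). Its log2 difference of 0.08 had the widest interval of the 7, from -0.53 to 0.69. Ldha averaged 127 ± 21.3 and 126 ± 18.2 CPM, with a log2 difference of 0.02 and an interval from -0.15 to 0.19. For Ldhb the difference was 0.16 (interval -0.16 to 0.48), for Pkm 0.10 (-0.13 to 0.32), for Gapdh 0.09 (-0.21 to 0.38) and for Eno2 0.08 (-0.37 to 0.53). All 7 differences were above 0 in both tissues, with a median of 0.12 in intact brain and 0.09 in lesions against 0.00 and 0.02 for all genes tested. A difference above 0 was thus common among all genes. In intact brain 50.2% of genes tested had a higher difference than Slc2a1 and 50.1% than Gapdh, and in lesions 50.3% than Ldha. For the rest of the 7 these shares ran from 4.94% to 38.7% in intact brain and from 3.29% to 36.6% in lesions. These signs are those of the TMM fits. Slc2a1 and Gapdh in intact brain, and Hk2, Eno2 and Ldha in lesions, changed sign in at least 1 other fit.

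The lesion change itself was compared between diets as an interaction over the 46 libraries. EdgeR called 0 of 7 genes and 0% of 16140, with 719 genes at an unadjusted p under 0.05. DESeq2 and limma voom also called 0 of the 7, and 0.0124% and 0.0805% of all genes. Ldha was the 1 gene of the 7 with an unadjusted p under 0.05. Its lesion change was -0.33 with the standard and -0.65 with the ketogenic diet, an interaction of -0.32 on the log2 scale (SE 0.15, unadjusted p = 0.0352, adjusted p = 0.99994), with the intact libraries entering both this and the diet contrast above. For Slc2a1 the changes were 0.64 and 1.01 and the interaction 0.38 (interval -0.10 to 0.85). The intervals for Hk2 (-1.01 to 0.79), Eno2 (-0.59 to 0.61) and Ldhb (-0.42 to 0.47) covered 0 with room on either side.

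The ratio of Ldha to Ldhb counts in a library needs no scaling between libraries. It is not corrected for gene length, so its level is not a ratio of transcripts and only its differences are read. In standard-diet intact brain Ldha had from 0.174 to 0.281 counts per Ldhb count with a median of 0.208, and in lesions from 0.202 to 0.434 with a median of 0.278. Of the 11 lesions 5 lay above all intact libraries and 0 below. Intact brain had a mean log2 ratio of -2.24 ± 0.25 (n = 8, SD) and lesions one of -1.80 ± 0.33 (n = 11), a difference of 0.44 or 1.36-fold (exact permutation p = 0.00642, adjusted p = 0.0321 over 5 ratio comparisons). The call depends on the statistic and on single libraries. With medians the difference was 0.43 (exact permutation p = 0.0154, adjusted p = 0.0771). As the Ldha share of Ldha plus Ldhb counts, the mean was 4.94 percentage points higher in lesions (exact permutation p = 0.00742, adjusted p = 0.0371). Without intact library 86, 87, 88 or 89, or without lesion 66, 67, 69 or 82, the adjusted exact permutation p rose above 0.05, and it ran from 0.0121 to 0.0759 over the 19 libraries left out in turn.

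In ketogenic-diet rats the ratio ran from 0.185 to 0.323 with a median of 0.235 in intact brain and from 0.183 to 0.377 with a median of 0.279 in lesions. The mean log2 ratios were -2.07 ± 0.34 (n = 8, SD) and -1.90 ± 0.32 (n = 19), a difference of 0.17 that did not pass (exact permutation p = 0.222, adjusted p = 0.330). With medians that difference was 0.26 (exact permutation, adjusted p = 0.609). Between diets the log2 ratio differed by 0.17 in intact brain (exact permutation p = 0.264, adjusted p = 0.330) and by -0.10 in lesions (permutation p = 0.427, adjusted p = 0.427). The lesion shift was not shown to differ between diets (-0.27, permutation p = 0.163, adjusted p = 0.330). In intact brain on the ketogenic diet the ratios formed a low set of 4 (libraries 45, 47, 57 and 59, up to 0.204) and a high set of 4 (49, 51, 53 and 55, from 0.265), and Ldhb ran from 730 to 977 CPM in the 8. Library 45 was in the low set although its Ldha level, 199 CPM, was among the 5 high ones, and it had the highest Ldhb level.

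**Figure D3:**
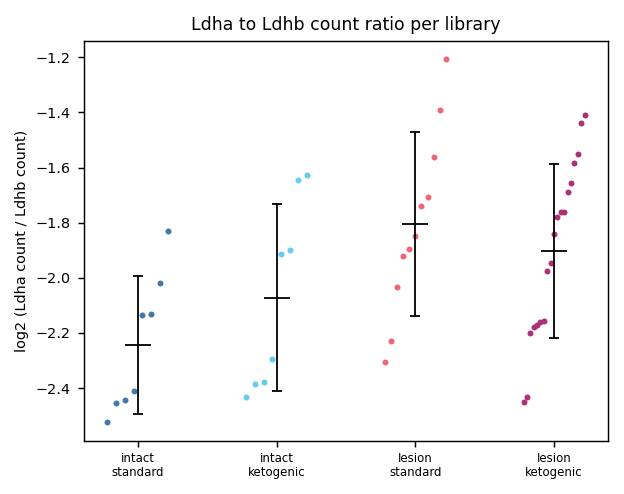
Log2 of Ldha counts over Ldhb counts in every library, by group, with the mean ± SD in black (n = 8, 8, 11 and 19). Standard-diet lesions centre at -1.80 and intact brain at -2.24, and the ketogenic groups, at -1.90 and -2.07, overlap more.

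Lesions lay at different distances from intact brain, and the genes were set against that distance. A library's place was read on an axis that runs from the mean of intact brain at 0 to the mean lesion at 1, computed from log2 CPM of all genes past the low-count filter except the 7. Standard-diet lesions lay between 0.48 and 1.30 and ketogenic lesions between 0.29 and 1.40. The axis was built from these same libraries, so relations to it describe how the genes line up with the bulk of the lesion change and are no separate test of that change. Of 8 measures, the 7 genes and the log2 ratio, 5 were related to the position in standard-diet and 7 in ketogenic lesions (Pearson's r, permutation p, adjusted over 16 relations). Among the 16151 genes of the axis, 37.2% in standard-diet and 48.4% in ketogenic lesions had an r at least as large in size as the weakest of these (0.73 in both groups), so a relation to the position was common.

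Eno2 followed the axis most closely, with r = -0.97 (Spearman rho = -0.97, adjusted permutation p = 2.29e-05, n = 11) on the standard diet and r = -0.97 (rho = -0.96, n = 19, the same adjusted permutation p, which rests on the smallest p that 100000 resamples give) on the ketogenic diet. Without the 2 libraries farthest from the median position r was -0.87 and -0.95. Of the genes of the axis, 0.836% and 1.65% had an r of larger size. Gapdh had r = -0.91 and -0.96 (7.65% and 3.67% of genes larger) and Ldhb r = -0.84 and -0.95 (19.7% and 4.64% larger), in the same order. For Hk2, next, these shares were 23.3% and 24.3%. Hk2 rose along the axis, with r = 0.82 (adjusted permutation p = 0.00252, n = 11), which dropped to 0.52 without the 2 farthest libraries, and r = 0.87 (adjusted permutation p = 2.29e-05, n = 19), which dropped to 0.78.

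Slc2a1, called in both MCAO contrasts, was not detectably related to the position in either lesion group. Its r with the axis position was 0.08 on the standard diet (rho = -0.18, adjusted permutation p = 0.806, n = 11) and 0.29 on the ketogenic diet (rho = 0.39, adjusted permutation p = 0.257, n = 19). The 2 genes parted most in ketogenic lesion 37. At position 1.28 it had the highest Hk2 level of all libraries, 100.4 CPM, and the lowest Slc2a1 level of all lesions, 127 CPM. The ketogenic r of Slc2a1 was not computed without this 1 library. Without the 2 libraries farthest from the median position, r of Slc2a1 was 0.15 on the ketogenic and -0.02 on the standard diet. Ldha was related to the position on the ketogenic diet (r = -0.73, adjusted permutation p = 0.000622, n = 19) and not detectably on the standard diet (r = -0.38, adjusted permutation p = 0.262, n = 11). Pkm fell along the axis on the ketogenic diet (r = -0.87, n = 19). On the standard diet its r of -0.73 (adjusted permutation p = 0.0177, n = 11) dropped to -0.39 without the 2 farthest libraries and its rank correlation did not pass (rho = -0.55, adjusted permutation p = 0.109).

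The Ldha to Ldhb ratio went up along the axis within ketogenic lesions (r = 0.86, rho = 0.83, adjusted permutation p = 2.29e-05, n = 19; r = 0.86 without the 2 farthest), although the mean ratio of those lesions did not differ detectably from intact brain. The lesions nearest to intact brain, libraries 27, 31, 9 and 29, had log2 ratios of -2.18, -2.43, -2.45 and -2.20, and those farthest from it, libraries 39, 33, 15 and 5, had -1.76, -1.58, -1.84 and -1.44. In standard-diet lesions r was 0.51 (adjusted permutation p = 0.137, n = 11), which did not pass. Of the genes of the axis, 27.3% in ketogenic and 61.9% in standard-diet lesions had an r of larger size than the ratio. The difference between the diets in these relations was not tested.

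**Figure D4:**
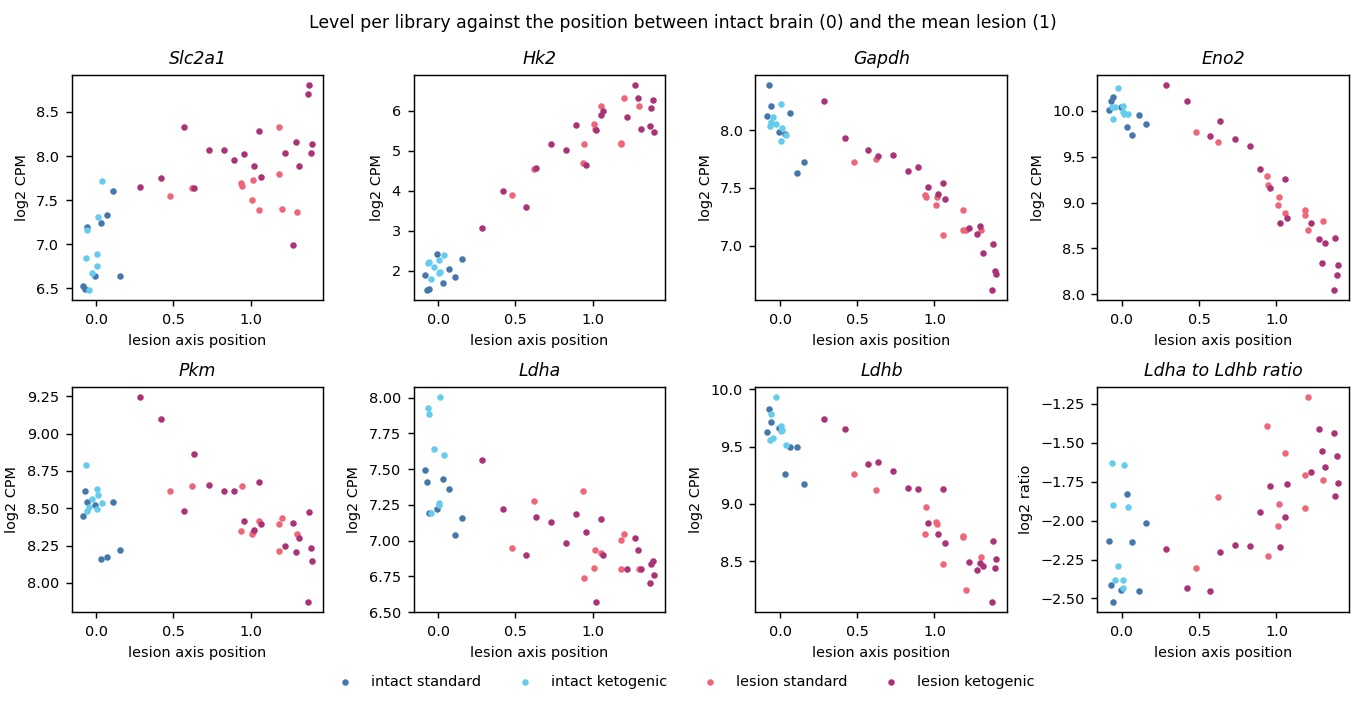
Log2 CPM of each gene, and the log2 Ldha to Ldhb ratio, against the position of each library between mean intact brain (0) and the mean lesion (1), with colours for the 4 groups. Eno2, Gapdh and Ldhb fall and Hk2 rises with the position, and Slc2a1 is scattered among lesions.

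Ketogenic lesion 27, the lesion nearest to intact brain at position 0.29, had the lowest Hk2 and the highest Eno2, Pkm, Gapdh, Ldha and Ldhb levels of the ketogenic lesions. It held 8.27 CPM of Hk2, above the intact range, and 201 CPM of Slc2a1, within it. Its 1246 CPM of Eno2 and 606 CPM of Pkm were the highest of all 46 libraries. Next on the axis, library 31 had 15.9 CPM of Hk2 beside 1101 CPM of Eno2.

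Levels of the genes were also set against each other within each group. Of the 21 pairs of genes, 14 were related in ketogenic lesions, 10 positively and 4 negatively, and 6 in standard-diet lesions, 3 each way (Pearson's r of log2 CPM, permutation p adjusted over 84 relations in the 4 groups). These 14 pairs are 66.7% of 21 and the 6 are 28.6%. The 2 counts come from 19 and 11 libraries, so a smaller r can pass in ketogenic lesions, and a difference between the diets was not tested. Eno2 with Pkm, for example, had r = 0.70 in standard-diet lesions and did not pass (adjusted permutation p = 0.0609, n = 11). Among all pairs of 16151 other genes past the low-count filter, 25.6% had an r at least as large in size as the weakest of the 14 (0.67), and 3.13% one as large as the weakest of the 6 (0.85). In ketogenic lesions (n = 19) the 10 positive pairs were all those among Gapdh, Eno2, Pkm, Ldha and Ldhb, from r = 0.76 for Gapdh with Ldha to r = 0.98 for Eno2 with Ldhb. The 4 negative pairs set Hk2 against Gapdh, Eno2, Pkm and Ldhb, from r = -0.67 to -0.80. The weakest of them, Hk2 with Pkm, did not pass by rank correlation (rho = -0.55, adjusted permutation p = 0.0602). Slc2a1 was in none of the pairs that passed in either lesion group.

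The lactate dehydrogenase pair differed in this respect between lesion groups as measured. Ldha and Ldhb had r = 0.78 (rho = 0.70, adjusted permutation p = 0.000517, n = 19) in ketogenic lesions and r = 0.09 (rho = 0.00, adjusted permutation p = 0.817, n = 11) in standard-diet lesions, a difference that was not tested. In intact brain 2 pairs passed on the standard diet, Eno2 with Pkm (r = 0.91, exact permutation, adjusted p = 0.0103, n = 8) and Pkm with Ldhb (r = 0.83, exact permutation, adjusted p = 0.0438, n = 8), and 0 of 21 on the ketogenic diet. Those 2 pairs on the standard diet are 9.52% of 21. Among all pairs of the 16151 other genes, 2.08% had an r at least as large in size as the weaker of the 2 (0.83). The genes of a library share its scaling factor.

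**Figure D5:**
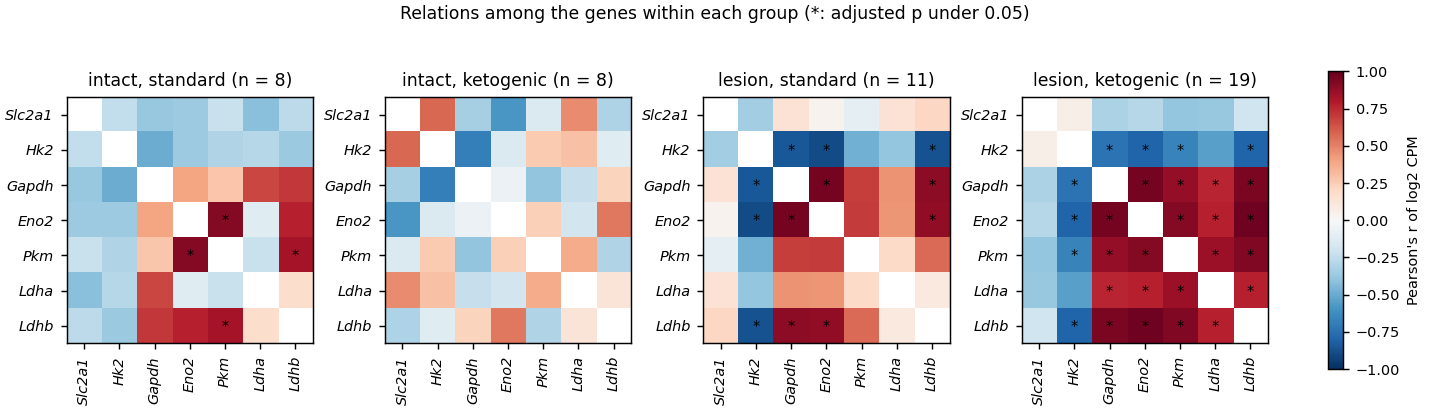
Pearson's r of log2 CPM between the 7 genes within each group (n = 8, 8, 11 and 19), on a scale from -1 (blue) to 1 (red), with a star where the adjusted permutation p was under 0.05. Gapdh, Eno2, Pkm, Ldha and Ldhb form the red block of ketogenic lesions, where r runs from 0.76 to 0.98.

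Over all 46 libraries, the genes most like Ldha by Pearson's r of log2 CPM among 14665 genes whose mean reached 1 CPM were ENSRNOG00000069794 (r = 0.92) and ENSRNOG00000000938 (r = 0.91). Most like Ldhb were ENSRNOG00000000054 and ENSRNOG00000019843 (r = 0.98 each). These values span intact brain and lesions, which differ in most genes, so they describe the common order of the libraries.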

How the data were processed

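The deposited files hold raw counts per Ensembl gene ID for 46 libraries, with no normalization by the authors. Per the labels' protocols, polyA RNA from a column kit went into directional libraries. The submitters' processing notes list HISAT2 2.0.5, HTSeq 0.7.2, DESeq2 1.42.0 and, as build, mRatBN7.2. The annotation release and strand setting are not given in the sources used here. Reads of overlapping genes may therefore be mixed. The series-wide table matched the per-sample files in every cell; its 39 columns of other samples were not used. The IDs carry no names and 0 matched the reference gene table, so 8 pathway lists and 8 marker lists of symbols were not analysed.

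Counts were fitted in R 4.3.3 with edgeR 4.0.16 (TMM, filterByExpr, robust quasi-likelihood F test), on the 2 groups compared or, for the interaction, on all 46 libraries. Benjamini-Hochberg adjustment ran over all genes tested. The fits were checked on simulated data with 200 changed genes. Log2 CPM used a prior count of 2. Ratios and relations were tested by two-sided permutation, exact where a group had under 10 libraries and with 100000 resamples otherwise. The interaction of the ratio always used 100000 resamples. Diet labels were permuted within each tissue there, so that test assumes no diet effect in either tissue. No 2 libraries of a group were alike within sampling noise (smallest chi-square per degree of freedom 12.8). The genes, lists, alternatives and comparisons were chosen with earlier results of these data known. Named are the 7 genes and the 2 most like Ldha and Ldhb. Alternatives were DESeq2, RLE scaling, library totals, 2 other low-count filters, limma 3.58.1 voom, 1 fit over all libraries, 2 covariates, and each library left out in turn. For the ratio, medians and the Ldha share of Ldha plus Ldhb were also used.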

Additional observations from a re-analysis of the deposited data

Results flagged for a closer look

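In intact brain on the ketogenic diet 1 library stood apart for each of 2 genes, by the gap to its nearest neighbour relative to the range of the 8 libraries. Library 45 had 1217 CPM of Eno2, and the next had 1058 (gap over range 0.621, against a critical value of 0.526). Library 49 had 442 CPM of Pkm, and the next had 396 (0.55). Chance flags about 1 in 20 such groups, and 16 were examined: the 7 genes and the Ldha to Ldhb ratio in the 2 intact groups. Without either library the diet comparison in intact brain called 0 of the 7 genes.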

How the results depend on the processing

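The count of called genes among the 7 was 6 for each MCAO contrast under every alternative and with every library left out, though with library totals only Pkm took the place of Ldha on the standard diet. It was 0 for diet in intact brain and for the interaction in every fit. For diet in lesions it was 0 with each library left out, and 1 (Slc2a1) with limma voom and with the axis position as covariate.

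Counts over all genes moved more. Diet in intact brain went from 0 to 274 with DESeq2 and 63 in 1 fit over all libraries, and ran from 0 to 170 with a library left out. Diet in lesions went from 117 to 502 with DESeq2, 183 with library totals, 21 without a low-count filter, 945 with limma voom, 77 in 1 fit over all libraries and 1694 with the axis position, and ran from 6 to 242 with a library left out. Higher calls were 73 of 117 with TMM, 76 of 101 with RLE scaling and 61 of 183 with library totals. For MCAO on the standard diet they were 5291 of 10563 with TMM and 8162 of 10652 with library totals, and on the ketogenic diet 5589 of 10968 and 7504 of 10861. The interaction went from 0 to 2 with DESeq2 and 13 with limma voom. With a library left out the MCAO counts ran from 10273 to 10863 on the standard and from 10629 to 11267 on the ketogenic diet.

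The log2 Ldha to Ldhb difference for MCAO on the standard diet was 0.43 with medians (adjusted p = 0.0771) and ran from 0.38 to 0.50 with a library left out. Taken as the Ldha share of Ldha plus Ldhb, this comparison kept its call (permutation, adjusted p = 0.0371). No other ratio comparison passed on that share (adjusted permutation p from 0.314 to 0.420). For MCAO on the ketogenic diet it was 0.17, 0.26 with medians (adjusted p = 0.609), and ran from 0.12 to 0.23 with a library left out. The interaction was -0.27, and -0.16 with medians (adjusted p = 0.779). For diet in intact brain the range was from 0.11 to 0.23 and for diet in lesions from -0.15 to -0.04. With medians the last was 0.0053.

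Some signs changed under an alternative, none of them with a call there. A gene called by edgeR was among them once, Ldha for MCAO on the standard diet with library totals (0.012). The others were Pkm for MCAO (-0.061 with voom on the standard and 0.18 with totals on the ketogenic diet), Slc2a1 for diet in intact brain (-0.00050 with DESeq2, -0.00062 with RLE scaling and -0.15 with the share of abundant genes as covariate) and Gapdh there with that covariate (-0.0050). In lesions they were Ldha with totals (-0.014), Hk2 with voom (-0.034) and with the axis position (-0.017), and Eno2 with the axis position (-0.0067). In the interaction they were Gapdh (-0.033), Eno2 (-0.092) and Ldhb (-0.070), all with totals. With a library left out, ranges crossed 0 for Pkm in MCAO on the standard diet (-0.027 to 0.038), for Slc2a1 (-0.13 to 0.11) and Gapdh (-0.048 to 0.060) under diet in intact brain, and for Hk2 (-0.012 to 0.20), Eno2 (-0.0085 to 0.16) and Ldha (-0.019 to 0.061) under diet in lesions. The causes were not tested. No paired analysis was possible because the groups share no sample numbers. In intact brain Hk2 rests on 30 to 78 counts per library, which limits its precision, and DESeq2 gave it no adjusted p for diet there.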
